A study of Mus musculus with 468 samples.

Results

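Brown adipose tissue (BAT) of vehicle-treated db/db mice on chow was compared with that of vehicle-treated wild type mice on chow (WT-chow). These are 20 of the 468 arrays of the series, chosen by their labels alone as BAT, vehicle and chow. They fall into 4 groups of 5 arrays, WT-chow and db/db-chow after 2 days (2 d) and after 5 days (5 d) of vehicle, and no array of the 2 d comparison is used at 5 d, so the second day repeats the first with other arrays. All 43681 probe sets of a custom Affymetrix mouse array are described, of which 30982 were given a gene name, for 22169 genes.

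WT-chow mice were male C57BL/6 from Taconic on their own chow formula, with no mutant allele. Db/db-chow mice were male db/db from The Jackson Laboratory, on a different chow formula and, per the labels, on the C57BLKS/J background. All mice were 8 weeks old when dosing began, received subcutaneous saline and no other agent, and gave tissue about 6 h after the last dose. Genotype, strain, supplier, chow and the set in which an array was scaled change together between the models and cannot be told apart here. Nothing in the labels links an array to a named cage, litter or scan day. The p-values rest on the spread between arrays of a group, in which mouse, dissection and any batch cannot be told apart.

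BAT burns fatty acids and glucose for heat through uncoupling protein 1 in its mitochondria, and noradrenaline from sympathetic nerves turns this on through β-adrenergic receptors. Leptin, a hormone of fat cells, acts mainly in the hypothalamus to limit food intake and to raise sympathetic drive to BAT. The db allele changes splicing of Lepr, the leptin receptor gene, so that the long receptor form loses its signaling tail, and db/db mice become obese and diabetic. Strain C57BLKS/J carries MHC haplotype d and C57BL/6 carries haplotype b.

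In short, macrophage, matrix and cell cycle genes were higher in db/db-chow BAT on both days, while many genes of fatty acid synthesis were lower. Many genes of glucose use and brown fat function were lower too. On the deposited scale, however, glucose use gave 5 lower and 5 higher, and brown fat function 7 lower and 4 higher. There, 24624 of all 43681 probe sets were changed and higher on both days, and 955 were changed and lower. Ucp1 itself was high in all groups and, after quantile normalization, not called on either day. It read 12.99 to 13.13 on the log2 scale in WT-chow at 2 d and 13.09 to 13.14 in db/db-chow at 2 d. All levels are log2 of the intensity after quantile normalization over the 20 arrays, and all differences are log2 db/db-chow minus WT-chow, with their standard error (SE). A pair of differences gives 2 d first and 5 d next. Changed probe sets passed an adjusted p of 0.05 with a minimum fold of 1.2, while for named genes and list members the adjusted p alone decided the call.

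As deposited, the arrays had median intensities of 11.39 to 11.8 in WT-chow and 18.08 to 19.29 in db/db-chow, and the gap between the models ran from 0.323 at the 10th percentile to 0.7 at the 50th and 0.194 at the 99th on the log2 scale. The gap was uneven, and the choice of scaling moves counts. The median correlation of an array with others of its model was 0.988 to 0.993. The brown fat markers Ucp1, Cidea and Cox8b had mean levels of 12.66 to 13.08, against a median of 3.883 for all probe sets and 13.541 for the highest. Muscle genes varied between arrays. The mean of the muscle genes Acta1, Ckm and Mylpf was 6.32 and 5.55 in WT-chow 5 d replicates 2 and 5, and 9.02 to 12.43 in the other 18 arrays. A list of 13 lymphocyte genes had a mean of 5.63 in WT-chow 5 d replicate 1 and of 3.43 to 4.26 elsewhere. The nerve marker Th and the B cell marker Cd79a lay below the median of all probe sets. No detection calls came with the values, so a low level is not called absent, and a fold against it is only what was measured.

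**Figure D1:**
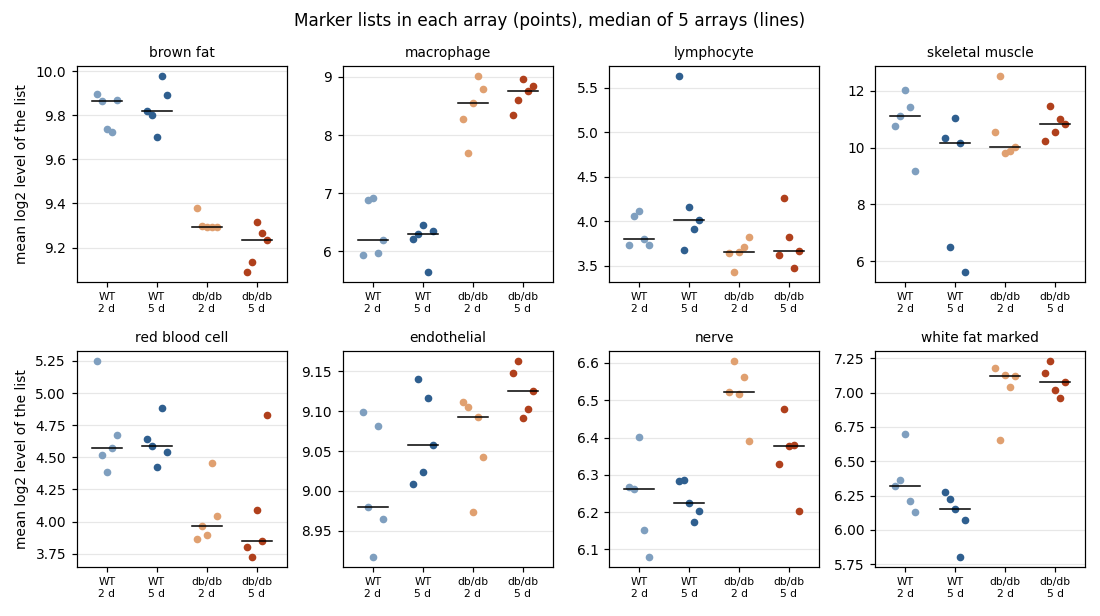
Mean log2 level of 8 lists of marker genes in each array (points) with the median of the 5 arrays of a group (lines), for WT and db/db at 2 d and 5 d, on a separate vertical scale for each list. The macrophage list lies at 7.69 to 9.01 in db/db-chow and 5.65 to 6.93 in WT-chow, the brown fat list at 9.09 to 9.38 against 9.7 to 9.98, and muscle has 2 low WT-chow 5 d arrays.

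At 2 d, 7933 probe sets (18.2%) were changed and higher in db/db-chow and 8239 (18.9%) were changed and lower. At 5 d these were 7368 (16.9%) and 8732 (20%). In the same direction on both days, 5476 (12.5%) were higher and 5943 (13.6%) lower, 70.6% of those changed at 2 d and 70.9% of those changed at 5 d, while 18 were changed in opposite directions. Among the probe sets changed on both days, 1201 were higher and 667 lower by 2-fold or more each time. The 2 d and 5 d differences correlated at 0.867 over all probe sets, which are not independent replicates.

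The split into higher and lower depends on scaling. On the deposited scale, where the median difference of all probe sets was 0.491 and 0.453, 29680 probe sets were higher and 1435 lower at 2 d, and 27811 and 1303 at 5 d. With arrays centred on the median, where the median difference was -0.206 and -0.25, 5793 were higher and 16681 lower at 2 d, and 5549 and 18888 at 5 d. After quantile normalization the median difference over genes was 0.003. On that scaling 17.3% of all genes were called higher and 15.1% lower on both days, the shares to set beside each list count. Lists whose balance turned with scaling are named as such below.

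**Figure D2:**
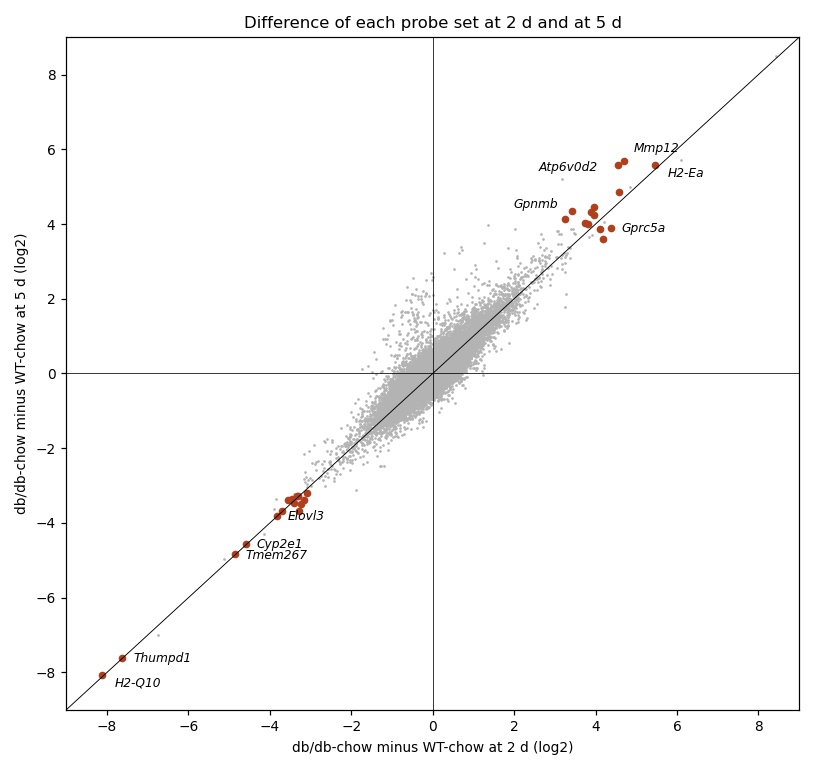
Log2 difference, db/db-chow minus WT-chow, of each probe set at 2 d (horizontal) and at 5 d (vertical), with the line of equality; red points are 29 of the 30 largest rises and falls. They lie along the line, from H2-Q10 at -8.12 and -8.06 to H2-Ea at 5.46 and 5.58.

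Lepr, the gene mutated in db/db mice, has 3 probe sets, all below the median level of the array. The first was lower in db/db-chow, by -0.66 (SE 0.18, adjusted p = 0.00665) and -0.60 (SE 0.18, adjusted p = 0.012). It read 2.70, 2.78, 3.58, 3.18 and 2.77 in WT-chow at 2 d and 2.02, 2.00, 2.58, 2.84 and 2.27 in db/db-chow at 2 d, so the groups overlapped. The second stood at -0.59 (called) and 0.03 (not called), and the third at -0.64 and -0.51 (both called). On the deposited scale all 5 of these calls were lost, and the second probe set was called higher at 5 d. Where the probes lie on Lepr relative to the splice change is not known here, so they do not check the genotype.

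Leptin itself rose in db/db-chow. Lep read 10.05, 10.05, 10.71, 9.69 and 9.69 in WT-chow at 2 d and 9.39, 9.43, 9.32, 5.88 and 7.61 at 5 d. In db/db-chow it read 12.20, 11.57, 12.26, 12.18 and 12.10 at 2 d and 12.31, 12.15, 12.15, 12.17 and 12.22 at 5 d. Each db/db-chow array lay above each WT-chow array of its day, as groups stood apart on both days for 17.2% of all probe sets, and the wide spread was in WT-chow at 5 d. The difference was 2.03 (SE 0.44, adjusted p = 0.000763) and 3.88 (SE 0.44, adjusted p = 2.62e-07). Socs3, which blocks leptin and cytokine receptors, rose by 1.0 (SE 0.28) and 1.75 (SE 0.28), and Stat5a, a factor that such receptors activate, fell by 0.72 and 0.66 (SE 0.07 each). Of 12 genes of leptin signaling, 5 were higher (Lep, Socs3, Leprot, Stat3, Ptpn11) and 2 lower (Stat5a, Lepr) on both days, against 17.3% of all genes higher and 15.1% lower; deposited values gave 10 and 1, median centring 2 and 3.

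The MHC genes H2-Q10 and H2-Ea were among the largest differences. Several of the largest, though not H2-Q10, were also large and of the same direction in each white depot, which were not tested on their own. Their size could still differ by test, as for Mcpt2, where BAT minus inguinal and epididymal white fat gave -2.14 and -1.90. H2-Q10, a class I gene whose product is secreted, read 9.56 to 10.19 in WT-chow at 2 d and 1.72 to 1.92 in db/db-chow at 2 d. It was lower by -8.12 and -8.06 (SE 0.12 each, adjusted p = 3.88e-23 and 4.51e-23). Its mean difference in BAT minus that in inguinal and epididymal white fat was -2.62 and -7.67. H2-Ea, the class II α chain that haplotype b does not express, read 3.64, 3.03, 3.38, 3.47 and 3.57 in WT-chow at 2 d and 8.63, 9.01, 8.60, 9.16 and 9.0 in db/db-chow at 2 d. It rose by 5.46 and 5.58 (SE 0.18 each), a fold of 44.0 and 47.9.

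Thumpd1, which helps acetylate transfer RNA, was near-constant within each model, at 10.04 to 10.17 in WT-chow and 2.22 to 2.78 in db/db-chow over both days. It fell by 7.64 and 7.61 (SE 0.10 each), and its difference in the inguinal, epididymal and retroperitoneal white depots (IWAT, EWAT, RPWAT) was -7.00, -8.07 and -7.97. Tmem267 was lower by -4.86 and -4.84 (SE 0.25 each) and stood at -3.16, -4.12 and -4.60 in those depots. The same held for Mocs1, an enzyme of molybdenum cofactor synthesis, at -3.57 and -3.40 in BAT and -2.78 to -3.61 in white fat. Rpsa, a ribosomal protein with near-identical copies in the genome, was at -3.42 and -3.48 in BAT and -2.69 to -3.36 in white fat, and Coa5, an assembly factor of cytochrome c oxidase, at -3.30 and -3.27 in BAT and -2.49 to -3.28 in white fat. Mcpt2, a mast cell protease, rose by 3.96 and 4.24 (SE 0.15 each) in BAT and stood at 6.00 to 6.44 in white fat. In BAT of wild type mice given the high fat diet (10 arrays of WT-HFD) these 6 genes, from Thumpd1 to Mcpt2, stood at -0.41 to 0.18 against WT-chow, without a test. Whether the probes of these genes match the sequence of both strains alike was not tested.

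Of 25 MHC genes measured, 9 were higher and 6 lower on both days, against 17.3% and 15.1% of all genes. Deposited values gave 13 and 3, and median centring 5 and 9. Besides H2-Q10, H2-T10 was lower at -1.63 and -1.69 (SE 0.19 each) and H2-Aa at -1.23 and -1.92 (SE 0.22 each). H2-Ab1, Cd74, B2m and Tap2 were among those that were higher. Class I genes of the MHC are close in sequence, so values of single ones are uncertain. Whether the probes of MHC genes, H2-Aa and H2-Ab1 among them, match both haplotypes alike was not tested. Probe sets also disagreed for E2f6, a transcriptional repressor, and Coa5, for which another probe set gave -0.04 and -0.09. For E2f6 that other probe set was the brighter, at a mean level of 7.95 against 6.56.

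Genes called on both days with a mean difference of at least 1 were 6.96% of 22124 genes placed on a chromosome. The share ran from 4.24% on chromosome 18 to 8.76% on chromosome 6 among the autosomes, and chromosome 17, which carries the MHC, had 8.26%. The densest run of 10 neighbouring measured genes, on chromosome 6, held 7 such genes, all of them higher, with Slc2a3 (1.25), C3ar1 (1.52) and the C-type lectin genes Clec4a1, Clec4a2, Clec4a3 and Clec4b1 (1.37 to 1.90). A run on chromosome 13 held 5, among them Tmem267 (-4.85) and Hmgcs1 (-2.23), an enzyme described below with cholesterol synthesis.

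Macrophage genes rose as a group. All 22 measured members of the list were higher on both days, with a median difference of 1.83, against 17.3% of all genes higher and a median of 0.003; deposited values also gave 22 higher, and median centring gave 20. The defining markers Adgre1 (F4/80), Cd68 and Itgax (CD11c) differed by 1.53 and 1.86, 1.58 and 1.96, and 2.83 and 2.82. In bulk tissue more cells of a type and more RNA per cell cannot be told apart, and likewise fewer and less.

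Mmp12, the macrophage elastase, showed the largest rise of the list. Both it and Gpnmb, a glycoprotein of lysosomes in lipid-laden macrophages, hold 1 copy of the AP-1 site TGACTCA in a promoter window. The search covered both strands, and the site overlapped no other motif searched. A window spans the transcription start site and lies mostly before it. Mmp12 has 2 windows, and the one shown was picked by its number of copies of the site. The windows are shown because these genes moved together, in RefSeq sequence of build GRCm38.p6, 5′ to 3′ on the strand of the gene, with the site in capitals. That of Mmp12 is chr9:7347124-7347423 (plus strand) and that of Gpnmb chr6:49036268-49036567 (plus strand).
Mmp12: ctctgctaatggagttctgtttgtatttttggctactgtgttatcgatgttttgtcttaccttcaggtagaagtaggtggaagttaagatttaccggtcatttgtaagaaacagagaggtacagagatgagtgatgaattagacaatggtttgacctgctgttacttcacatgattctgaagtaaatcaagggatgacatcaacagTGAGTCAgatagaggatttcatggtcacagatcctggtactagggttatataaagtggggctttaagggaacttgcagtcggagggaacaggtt
Gpnmb: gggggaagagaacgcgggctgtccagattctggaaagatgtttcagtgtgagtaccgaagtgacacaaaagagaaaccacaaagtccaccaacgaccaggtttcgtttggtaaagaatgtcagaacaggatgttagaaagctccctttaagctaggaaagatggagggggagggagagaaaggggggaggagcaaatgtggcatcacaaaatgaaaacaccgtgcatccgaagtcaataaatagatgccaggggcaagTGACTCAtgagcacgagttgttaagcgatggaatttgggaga
The site begins at -44 from the start site in Mmp12, where it reads on the opposite strand, and at 8 in Gpnmb. It occurs in 5.95% of 27025 genes with such a window and in 4 of the 14 macrophage genes with a window, namely Cd68, Itgax, Gpnmb and Mmp12. The motif was chosen after the values were seen, and a match is no evidence of binding.

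Mmp12 read 3.41, 4.80, 4.98, 3.85 and 3.91 in WT-chow at 2 d and 3.47, 3.41, 3.36, 2.79 and 3.79 at 5 d. In db/db-chow it read 8.77, 8.18, 9.31, 9.61 and 8.60 at 2 d and 8.72, 8.84, 8.96, 9.38 and 9.33 at 5 d. The rule that named Mmp12 required groups that do not overlap. The rise was 4.70 and 5.68 (SE 0.27 each, adjusted p = 7.59e-12 and 2.76e-13), although another probe set of Mmp12 gave 0.17.

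Gpnmb read 5.15, 6.45, 7.10, 5.51 and 5.85 in WT-chow at 2 d and 9.35, 8.13, 9.52, 10.20 and 9.92 in db/db-chow at 2 d. It rose by 3.41 and 4.35 (SE 0.32 each), and its other 4 probe sets gave 0.77 to 2.10. Within WT-chow at 2 d, replicates 2 and 3 were the highest for both Mmp12 and Gpnmb, and within db/db-chow at 2 d replicate 2 was the lowest for both. The proton pump that acidifies lysosomes was represented by Atp6v0d2, a subunit found in macrophages and osteoclasts, which rose by 4.56 and 5.58 (SE 0.36 each), and by Atp6v1c2, at 3.81 and 4.0 (SE 0.16 each). Atp6v1c2 differed by -0.59 to 1.37 in the white depots, and Atp6v0d2 by 2.62 to 3.34.

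Spp1 (osteopontin) rose by 2.72 and 4.59 (SE 0.56 each), Trem2, a lipid-sensing receptor of macrophages, by 2.85 and 3.17 (SE 0.30 each), Adam8, a leukocyte protease, by 3.88 and 4.33 (SE 0.30 each) and Rgs1, which damps chemokine receptor signals, by 3.25 and 4.14 (SE 0.26 each). Of 13 lymphocyte genes 1 (Cd79a, near the lowest levels of the array) was higher and 2 lower, against 17.3% and 15.1% of all genes, and scaling turned this balance to 4 and none on the deposited scale and none and 3 with median centring. Of 19 interferon-induced genes 1 (Mx2) was higher and 1 (Bst2) lower. For interferon-induced genes deposited values gave 9 higher and none lower, and median centring 1 and 3. The T cell marker Cd3e was at -0.69 and -0.87 (SE 0.23 each), calls that were lost on the deposited scale.

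Collagen and matrix genes rose nearly without exception. Of 23 measured, 21 were higher and none lower on both days, with a median of 1.29 (deposited scale 23 higher, median centring 17, none lower in either). Timp1, an inhibitor of matrix proteases, read 3.44 to 4.57 in WT-chow at 2 d and 7.04, 5.73, 7.15, 8.54 and 8.05 in db/db-chow at 2 d. It rose by 3.37 and 3.35 (SE 0.35 each, adjusted p = 9.21e-08 and 9.25e-08). Bgn (biglycan), which binds collagen fibres, rose by 1.86 and 1.95 (SE 0.11 each) and varied little within groups, from 8.62 to 9.15 in WT-chow and from 10.51 to 11.08 in db/db-chow. Col5a1, a fibril collagen, rose by 2.20 and 1.83 (SE 0.19 each), and Eln (elastin) by 2.13 and 1.82 (SE 0.15 each).

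Of 19 cell cycle genes, 17 were higher on both days and none lower, with a median of 1.28 (17 with median centring, 19 on the deposited scale). Rrm2, the small subunit of ribonucleotide reductase, which makes DNA precursors, read 1.87 to 2.50 in WT-chow at 2 d and 6.14, 5.20, 5.97, 6.38 and 6.15 in db/db-chow at 2 d. It rose by 3.73 and 4.02 (SE 0.19 each), while its other probe set gave 0.39. The S and M phase cyclin Ccna2 rose by 1.95 and 2.12 (SE 0.22 each), the proliferation marker Mki67 by 1.76 and 1.85 (SE 0.28 each), and Cdk1, the kinase of mitotic entry, by 1.60 and 1.87 (SE 0.22 each), although its other probe set gave -0.05. Macrophage genes were higher in the same arrays; their part in the matrix and cell cycle differences was not tested.

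**Figure D3:**
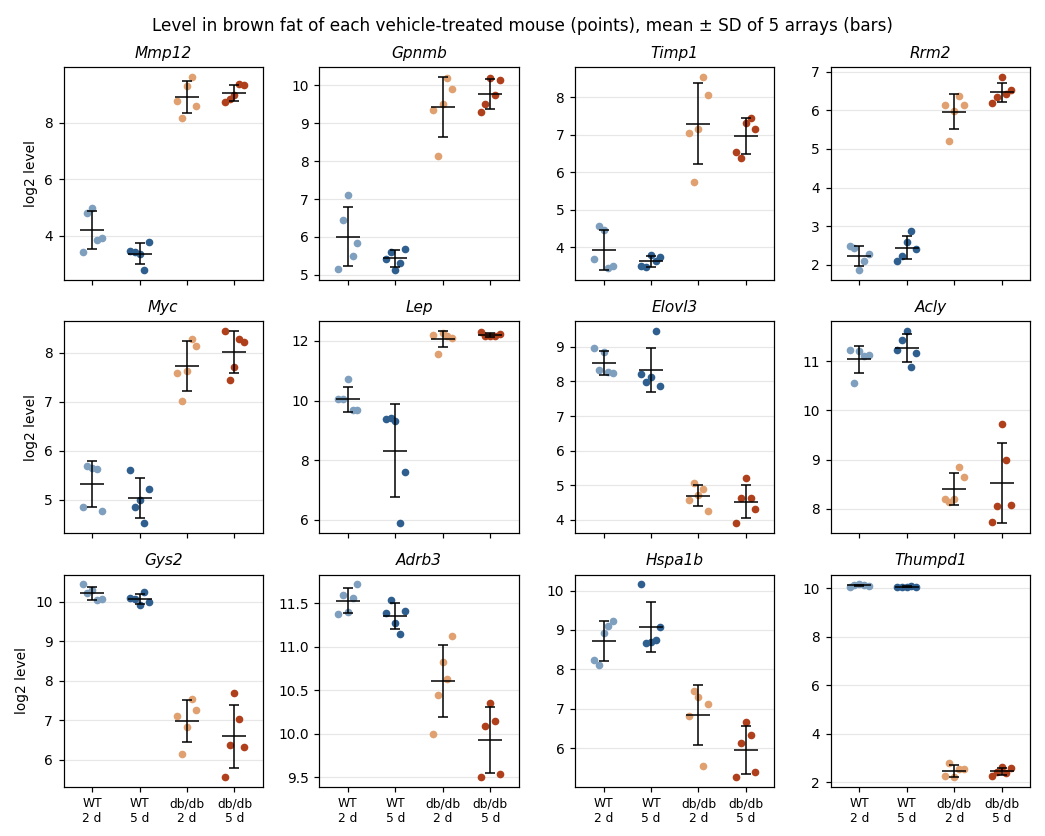
Log2 level of 12 genes in each vehicle-treated mouse (points), with mean and SD of the 5 arrays of a group (bars); each gene has its own vertical scale, which does not start at 0. Mmp12, Gpnmb, Timp1, Rrm2, Myc and Lep are higher in db/db and Elovl3, Acly, Gys2, Adrb3, Hspa1b and Thumpd1 are lower. Groups that do not overlap were a condition for naming Mmp12, Gpnmb, Rrm2, Elovl3, Gys2 and Thumpd1.

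Many genes of brown fat function were lower, although not Ucp1. Of 27 genes, 17 were lower and 1 (Fabp3) higher on both days, against 15.1% of all genes lower, with a median of -0.38 (deposited scale 7 lower and 4 higher, median centring 21 and none). Cidea, which enlarges lipid droplets, differed by -0.13 and -0.20, and Cox8b, a respiratory chain subunit, by -0.09 and -0.16, of which the 2 d call was lost on the deposited scale. Ucp1 stood at 0.05 (adjusted p = 0.163) and -0.03 (adjusted p = 0.368), at a level close to the highest on the array, where the response of a probe set was not tested. On the deposited scale Ucp1 was called higher at 2 d, at 0.061 (adjusted p = 0.048), and not at 5 d, at 0.004 (adjusted p = 0.908). Among regulators, Prdm16, Ppargc1b, Esrra, Esrrg and Ppara were lower on both days, but none of these 5 was called on both days on the deposited scale, where Esrrg stood at 0.18 and 0.11. With the mean over its probe sets Ppara stood at -0.16 and -0.17 and was not called.

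Elovl3, which elongates fatty acids in brown fat and is known to respond to cold, fell most in this list. It read 8.97, 8.32, 8.85, 8.26 and 8.24 in WT-chow at 2 d and 8.21, 7.99, 8.14, 9.47 and 7.87 at 5 d. In db/db-chow it read 4.57, 5.06, 4.72, 4.88 and 4.24 at 2 d and 3.89, 4.62, 5.20, 4.62 and 4.30 at 5 d. The fall was 3.83 and 3.81 (SE 0.26 each, adjusted p = 7.39e-11 and 7.89e-11). In white fat Elovl3 stood at 1.35, 0.42 and 0.10.

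Acot11 (Them1), a thioesterase that limits fatty acid oxidation in BAT, fell by 2.11 and 2.29 (SE 0.21 each), and Slc27a2, a fatty acid transporter, by 1.88 and 2.08 (SE 0.17 each). Gk (glycerol kinase), which lets brown fat reuse glycerol, fell by 0.91 and 1.59 (SE 0.22 each). Acot11 read 12.29 to 12.51 in WT-chow and 10.09 to 10.51 in db/db-chow at 2 d, and 9.41 to 11.28 in db/db-chow at 5 d, where replicate 3 was the highest.

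Of genes marked as those of white fat, 6 of 16 were higher and 3 lower, against 17.3% and 15.1% of all genes. Deposited values gave 12 and none, and median centring 6 and 3. Nnat (neuronatin), a small membrane protein of the endoplasmic reticulum, read 8.86 to 10.23 in WT-chow at 2 d and 11.78 to 12.61 in db/db-chow at 2 d. It rose by 2.66 and 3.73 (SE 0.34 each) and stood at -0.08 to 0.13 in the 3 white depots. Npr3, which clears natriuretic peptides, rose by 1.26 and 2.04 (SE 0.17 each). One of the 6 is Trem2, also in the macrophage list and described there. Of the positional markers, Hoxc8 was lower at -1.04 and -0.56 (adjusted p = 0.000611 and 0.0498, not called on both days on the deposited scale), Hoxc9 stood at 0.20 and 0.37 (adjusted p = 0.317 and 0.0616) and Hoxc10 at -0.20 and -0.49 (adjusted p = 0.397 and 0.0346).

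The adrenergic list had 10 genes lower and 1 (Adrb1) higher of 26 on both days, and 17 and 1 with median centring, but 3 lower and 7 higher on the deposited scale. Adrb3, the main noradrenaline receptor of rodent brown fat cells, read 11.38, 11.60, 11.40, 11.56 and 11.72 in WT-chow at 2 d and 10, 10.45, 10.82, 10.63 and 11.12 in db/db-chow at 2 d. At 5 d WT-chow read 11.39, 11.54, 11.27, 11.15 and 11.41, and db/db-chow 9.5, 10.09, 10.35, 10.14 and 9.54. The highest db/db-chow array lay below the lowest WT-chow array each day. Groups stood apart on both days, in either direction, for 17.2% of all probe sets. The fall was 0.93 and 1.43 (SE 0.16 each, adjusted p = 8.41e-05 and 2.91e-07). Adcy3, an adenylyl cyclase that makes cAMP behind these receptors, fell by 0.85 and 1.2 (SE 0.17 each), the soluble cyclase Adcy10 by 1.58 and 1.57 (SE 0.27 each), and Pde4d, which degrades cAMP, by 0.91 and 1.45 (SE 0.17 each), although its other probe set gave 0.23. On the deposited scale the calls of Adcy3 and Pde4d at 2 d were lost.

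Fatty acid synthesis was the pathway with the lowest median, -0.66 over 21 genes. On both days 16 were lower and 3 higher (deposited scale 13 and 3, median centring 18 and 3). The lower genes ran along the pathway, from the mitochondrial citrate carrier (Slc25a1) through the enzymes that make acetyl-CoA (Acly, Acss2), malonyl-CoA (Acaca, Acacb), fatty acids (Fasn) and longer chains (Elovl5, Elovl6), to those that supply NADPH (Me1, Pgd) and the factors that switch the genes on (Srebf1, Mlxipl), although the 5 d calls of both factors were lost on the deposited scale.

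Acly, ATP citrate lyase, read 11.23, 10.56, 11.20, 11.10 and 11.13 in WT-chow at 2 d and 11.23, 11.43, 11.62, 10.88 and 11.16 at 5 d. In db/db-chow it read 8.20, 8.13, 8.20, 8.85 and 8.64 at 2 d and 7.74, 8.06, 9.73, 9.0 and 8.08 at 5 d. Db/db-chow 5 d replicate 3 came nearest to WT-chow, yet stayed below each WT-chow array. Such a gap on both days, in either direction, was seen for 17.2% of all probe sets. Acly fell by 2.64 and 2.74 (SE 0.26 each, adjusted p = 3.51e-08 and 1.8e-08), Slc25a1 by 1.94 on each day (SE 0.18) and Acss2 by 1.62 and 1.78 (SE 0.18 each). Pnpla3, a lipid droplet protein whose gene is a target of the same factors, went the other way, rising by 1.66 and 1.79 (SE 0.22 each) with Fads1 and Fads2, the desaturases of polyunsaturated fatty acids.

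Of 22 cholesterol synthesis genes 9 were lower and none higher, with 12 and none after median centring but 5 lower and 8 higher on the deposited scale. Hmgcs1, which makes the HMG-CoA from which cholesterol is built, read 10.80 to 11.07 in WT-chow and 8.35 to 8.90 in db/db-chow over both days. Its fall of 2.21 and 2.25 (SE 0.08 each) came with -1.19, -1.79 and -2.07 in the white depots, and it is a neighbour of Tmem267 on chromosome 13. Nsdhl, a later enzyme, fell by 1.73 and 1.70 (SE 0.15 each) and stood at 0.88 to 1.13 in white fat. Pmvk fell by 1.02 and 1.16 (SE 0.14 each) and Lss, lanosterol synthase, by 0.90 and 1.18 (SE 0.15 each).

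In triacylglycerol synthesis 6 of 16 genes were lower and 1 (Aqp7) higher (median centring 9 and none), but on the deposited scale 5 were lower and 7 higher. Mogat1, which acylates monoacylglycerol, fell by 3.10 and 3.19 (SE 0.11 each) and stood at -2.39 to -3.02 in white fat. Agpat2, of phosphatidic acid synthesis, read 11.82 to 11.99 in WT-chow and 10.41 to 11.23 in db/db-chow and fell by 0.92 and 1.23 (SE 0.11 each). For lipolysis and droplets 4 of 16 were higher and 5 lower, against 17.3% and 15.1% of all genes. Deposited values gave 5 and 3, and median centring 2 and 11. Hilpda, an inhibitor of the lipase ATGL, rose by 0.83 and 1.57 (SE 0.15 each), and the droplet coat protein Plin4 by 0.78 and 0.84 (SE 0.07 each). Abhd5, the activator of ATGL, fell by 0.78 and 0.83 (SE 0.08 each), and G0s2, another inhibitor, by 0.53 and 0.38 (SE 0.10 each), of which the 5 d call was lost on the deposited scale.

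Fatty acid oxidation had 9 genes lower and 3 higher of 20 (deposited scale 4 and 4, median centring 19 and 1). Ehhadh, of peroxisomal oxidation, fell by 1.89 and 1.86 (SE 0.23 each), Crat by 0.45 and 0.50 (SE 0.07 each) and Echs1 by 0.47 and 0.40 (SE 0.04 each). Cpt1a, the form of the mitochondrial entry enzyme typical of liver, rose by 0.92 and 1.39 (SE 0.12 each), whereas Cpt1b, the form typical of muscle and brown fat, was among the lower genes, although on the deposited scale it was not called on either day. Of 15 genes of acyl-CoA thioesterases and peroxisomes 6 were lower and 1 higher, counts that became 3 and 3 on the deposited scale. Acot1, whose sequence is close to that of Acot2, fell by 2.67 and 1.81 (SE 0.33 each). Of genes of lipid uptake, 5 of 15 were higher and 4 lower, against 17.3% and 15.1% of all genes. Deposited values gave 7 and 2, and median centring 1 and 8. Lrp1, a receptor for remnant particles, rose by 1.04 and 1.26 (SE 0.08 each). The transporter Slc27a1 fell by 0.96 and 0.90 (SE 0.18 each).

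Genes of glucose use were mostly lower on this scaling. Of 25 genes 15 were lower and 3 higher (median centring 20 and 2), although the deposited scale gave 5 and 5. Gys2, the glycogen synthase known from liver, read 10.45, 10.23, 10.30, 10.05 and 10.07 in WT-chow at 2 d and 10.10, 10.08, 9.92, 10.25 and 10.01 at 5 d. In db/db-chow it read 7.10, 6.15, 6.84, 7.55 and 7.25 at 2 d and 5.56, 6.38, 7.68, 7.02 and 6.32 at 5 d. WT-chow was tight and db/db-chow spread wide, and the fall was 3.24 and 3.48 (SE 0.27 each, adjusted p = 1.95e-09 and 5.8e-10). In white fat Gys2 stood at -0.27 to 0.93.

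Slc2a4 (GLUT4), the insulin-responsive glucose transporter, fell by 0.60 and 0.73 (SE 0.10 each), with the 2 d call lost on the deposited scale. Pfkfb3, which sets the activator of phosphofructokinase, fell by 0.99 and 1.34 (SE 0.14 each), and Slc2a5 (GLUT5), a fructose transporter, by 3.17 and 3.40 (SE 0.49 each). Slc2a5 ranged from 3.84 to 7.17 in db/db-chow at 5 d, where replicate 3 was again the highest, as for Acly and Gys2. Slc2a3 (GLUT3) rose by 1.07 and 1.43 (SE 0.14 each), as did Slc2a1 among the higher genes.

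For insulin signaling, 7 of 20 genes were lower and 4 higher on both days, against 15.1% and 17.3% of all genes. Median centring gave 9 and 1, but the deposited scale 3 and 8. The receptor Insr fell by 1.08 and 0.58 (SE 0.12 each, the 5 d call lost on the deposited scale, and its other 2 probe sets at -0.93 and 0.14) and its substrates Irs1 by 1.24 and 0.96 (SE 0.12 each) and Irs3 by 0.99 and 0.81 (SE 0.13 each). Irs1 read 8.77 to 9.11 in WT-chow and 7.56 to 8.27 in db/db-chow. Grb14, an adaptor that inhibits the receptor, rose by 0.70 and 0.96 (SE 0.12 each).

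Mitochondrial genes differed by less. Of 30 genes of oxidative phosphorylation 8 were lower and 3 higher, with a median of -0.09; median centring made all 30 lower, and the deposited scale 9 higher and 2 lower. Among them the complex IV subunits Cox7b and Cox6c fell by 1.66 and 1.28 (SE 0.19 each) and by 0.66 and 0.57 (SE 0.07 each), the Cox6c call at 5 d being lost on the deposited scale. In white fat Cox7b stood at 0.76 to 1.61. Of 17 citrate cycle genes 6 were lower and 3 higher, against 15.1% and 17.3% of all genes. Deposited values gave 2 and 4, and median centring 17 and none. Pdhb, of the pyruvate dehydrogenase complex, fell by 0.48 and 0.50 (SE 0.06 each) and Dlat, of the same complex, by 0.36 and 0.39 (SE 0.06 each). Ogdh, at 0.24 and 0.23 (SE 0.04 each), turned negative with median centring, and of its other 2 probe sets 1 was called higher (1.65) and 1 lower (-1.02).

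Breakdown of branched-chain amino acids had 8 genes lower and 1 higher of 18 (median centring 16 and none, deposited scale 3 and 5). Dbt and Bckdha, of the branched-chain ketoacid dehydrogenase, fell by 0.95 and 1.11 (SE 0.09 each) and by 0.53 and 0.47 (SE 0.07 each), and Mccc1, of leucine breakdown, by 0.67 and 0.60 (SE 0.06 each). Of 12 genes of creatine and calcium cycling, 4 were higher and 1 lower (deposited scale 5 and none, median centring 3 and 2). Slc6a8, the creatine transporter, rose by 0.94 and 1.23 (SE 0.13 each, its other 2 probe sets at -0.13 and 1.11), Gamt, the last enzyme of creatine synthesis, by 0.97 and 1.22 (SE 0.17 each), and the calcium channel Ryr2 by 1.37 and 1.93 (SE 0.16 each).

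Of 15 heat shock chaperones, 7 were lower and 1 higher on both days, against 15.1% and 17.3% of all genes. Deposited values gave 6 and 3, and median centring 11 and 1. Cells switch chaperone genes on through heat shock factor, which binds copies of the element GAANNTTC. The promoter windows of Hspa1b, an inducible Hsp70, and Hspb8, a small chaperone, are shown as above with the element in capitals, since both hold 1 copy (searched on both strands, overlapping no other motif searched). That of Hspa1b is chr17:34959189-34959488 (minus strand) and that of Hspb8 chr5:116422815-116423114 (minus strand).
Hspa1b: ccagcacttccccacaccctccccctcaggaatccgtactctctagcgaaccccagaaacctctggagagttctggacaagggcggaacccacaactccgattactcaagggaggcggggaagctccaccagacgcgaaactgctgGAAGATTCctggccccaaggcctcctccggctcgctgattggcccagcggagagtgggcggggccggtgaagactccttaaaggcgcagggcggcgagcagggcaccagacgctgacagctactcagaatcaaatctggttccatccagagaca
Hspb8: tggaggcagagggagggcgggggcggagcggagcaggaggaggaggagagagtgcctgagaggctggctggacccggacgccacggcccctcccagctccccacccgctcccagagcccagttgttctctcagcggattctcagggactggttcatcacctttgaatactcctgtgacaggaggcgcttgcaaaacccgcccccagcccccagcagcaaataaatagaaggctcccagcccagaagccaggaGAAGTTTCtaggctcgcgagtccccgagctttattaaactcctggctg
The element begins at -104 from the start site in Hspa1b and at 2 in Hspb8. It occurs in 9.04% of 27025 genes with a window, in 10 of the 12 genes of the list with a window, and in each of the 5 called genes with a window, all of them lower (Hspa1a, Hspa1b, Dnaja1, Hspb8, Hspe1). It too was chosen after the values were seen and is no evidence of binding.

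Hspa1b read 8.24, 8.10, 8.93, 9.09 and 9.23 in WT-chow at 2 d and 10.16, 8.68, 8.69, 8.74 and 9.07 at 5 d. In db/db-chow it read 6.83, 7.45, 7.29, 5.54 and 7.12 at 2 d and 5.27, 6.14, 6.67, 6.34 and 5.40 at 5 d. The models did not overlap on either day, as for 17.2% of all probe sets in either direction. The difference was -1.87 and -3.11 (SE 0.34 each, adjusted p = 0.000131 and 1.78e-07). Its near-identical copy Hspa1a fell by 1.29 and 2.47 (SE 0.27 each), and probes to one copy may also bind the other. Hspb8 read 7.14 to 7.57 in WT-chow and 5.65 to 6.78 in db/db-chow and fell by 0.96 and 1.17 (SE 0.16 each). Cryab, a small chaperone abundant in muscle, went the other way, at 1.56 and 2.38 (SE 0.20 each).

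Immediate early genes were higher in 12 of 18 cases and lower in none, against 17.3% and 15.1% of all genes. Those higher were 15 on the deposited scale and 11 with median centring. Myc, a growth factor-induced regulator, read 4.85, 5.69, 5.66, 5.63 and 4.77 in WT-chow at 2 d and 7.59, 7.01, 7.63, 8.28 and 8.14 in db/db-chow at 2 d. At 5 d the levels were 5.62, 4.86, 5.00, 4.52 and 5.23 against 8.45, 7.44, 7.71, 8.28 and 8.22. The rise was 2.41 and 2.97 (SE 0.25 each, adjusted p = 7.73e-08 and 2.87e-09), and Myc stood at -1.74, -1.11 and 0.01 in the white depots. Fosl1, an AP-1 subunit, rose by 2.43 on each day (SE 0.40), and Egr2 by 1.27 and 3.49 (SE 0.36 each).

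Atf3, induced by several stresses, rose by 1.38 and 2.36 (SE 0.28 each), with 6 of 19 genes of endoplasmic reticulum stress and amino acid response higher and 2 lower (deposited scale 13 and none), a balance that turned to 5 and 7 with median centring. Phgdh, the first enzyme of serine synthesis, read 6.97 to 7.32 in WT-chow and 8.15 to 8.83 in db/db-chow at 2 d and rose by 1.41 and 1.53 (SE 0.13 each), and Psat1, the next enzyme, by 1.44 and 1.68 (SE 0.21 each). In white fat Phgdh stood at -0.90, -1.56 and -1.83. The metallothionein Mt2, which also responds to glucocorticoids, rose by 1.95 and 1.62 (SE 0.23 each), Hmox1, which degrades heme, by 1.59 and 1.67 (SE 0.28 each) and Fkbp5, a glucocorticoid target, by 1.84 and 1.30 (SE 0.24 each). The receptor gene Nr3c1 fell by 0.83 and 0.60 (SE 0.11 each), with the 5 d call lost on the deposited scale. Oxidative stress genes numbered 7 higher and 5 lower of 20 (median centring 3 and 10, deposited scale 11 and 3). Glucocorticoid-responsive genes numbered 6 and 1 of 16 (median centring 2 and 5, deposited scale 11 and none). The shares of all genes were 17.3% higher and 15.1% lower. Of 18 clock genes 3 were higher and 3 lower, near the shares of all genes (deposited scale 8 and none, median centring none and 5).

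Of secreted factors, 8 of 22 were higher and 7 lower, against 17.3% and 15.1% of all genes. Deposited values gave 12 and 2, and median centring 7 and 8. Lcn2 (lipocalin 2) rose by 2.68 and 2.65 (SE 0.38 each), and the acute phase gene Saa3 by 3.28 and 2.12 (SE 0.55 each). Saa3 ranged from 3.85 to 8.70 in db/db-chow at 2 d. Adipoq (adiponectin), Rbp4, Retn, Nampt, Orm1, Vegfa and Nrg4 made up the lower genes, of which only Rbp4 and Nampt were lower on both days on the deposited scale. In FGF signaling 6 of 19 were higher and 2 lower, beside the same shares of all genes (deposited scale 15 and 2, median centring 5 and 4). Etv5, an FGF-induced factor, rose by 0.96 and 1.21 (SE 0.10 each). Dusp5, a phosphatase that ends ERK signals, rose by 1.54 and 2.12 (SE 0.27 each). The receptor Fgfr2 fell by 1.61 and 1.24 (SE 0.18 each), with its other 3 probe sets at -0.72 to 0.12.

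Of adipogenic factors, 3 of 16 were higher and 4 lower, against 17.3% and 15.1% of all genes. Deposited values gave 9 and none, and median centring 1 and 10. Among the lower was Klf15, a regulator of amino acid and glucose use. It stood at -0.93 and -1.42 (SE 0.23 each), with the 2 d call lost on the deposited scale. Endothelial genes were split at 5 higher and 2 lower of 12, beside the same shares of all genes (deposited scale 9 and 1, median centring 2 and 4). The VEGF receptor Flt1 stood at -0.84 and -1.08 (SE 0.08 each). Of the other 3 probe sets of Flt1, 1 was called higher and 2 lower, from -2.18 to 0.57. Of 12 nerve and Schwann cell genes 1 was higher, Pmp22 at 1.03 and 0.86 (SE 0.07 each), against 8 on the deposited scale and 1 higher and 1 lower with median centring. Of 8 red blood cell genes 4 were measured, of which 2 were lower and none higher, none called on the deposited scale and 3 lower with median centring.

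**Figure D4:**
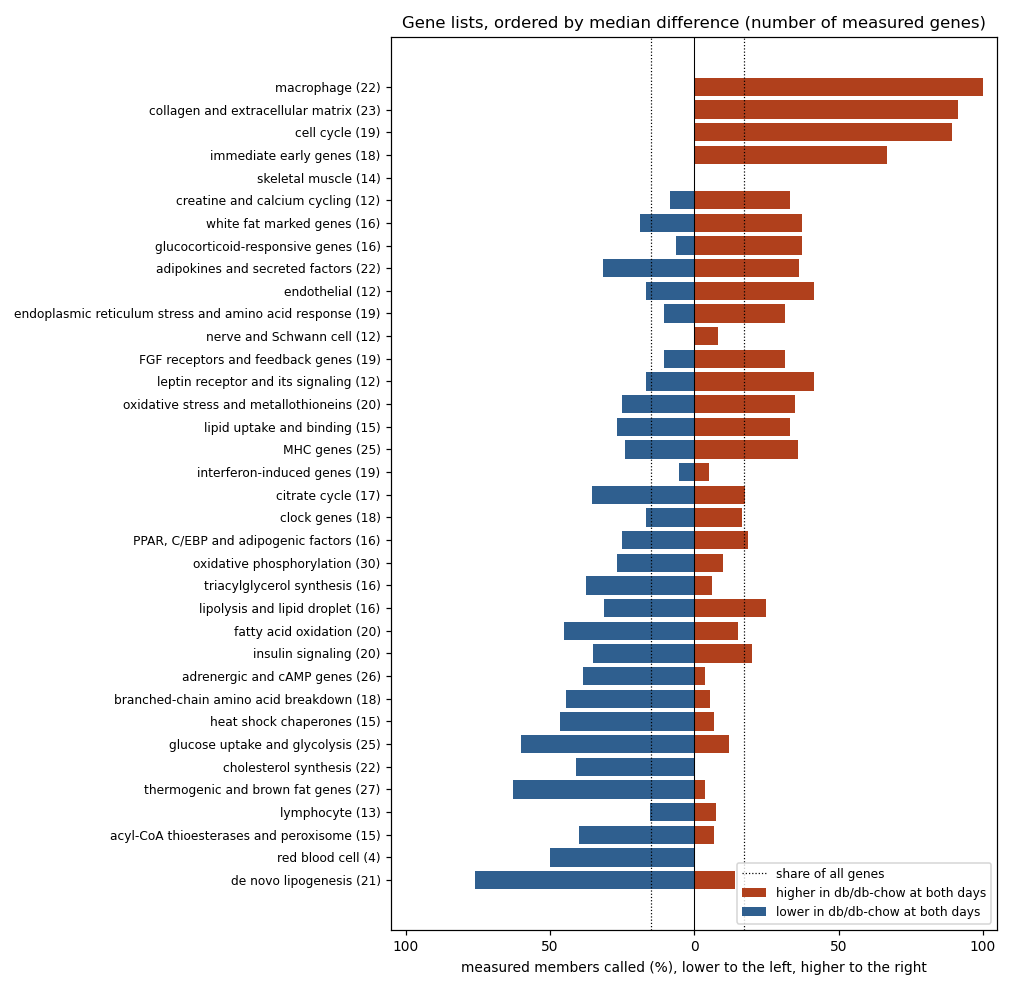
Share of the measured members (number in brackets) of 36 gene lists called on both days, higher in db/db-chow to the right and lower to the left (%), ordered by median difference from the highest at the top; dotted lines are the shares of all genes, 17.3% higher and 15.1% lower. Macrophage, matrix, cell cycle and immediate early genes extend furthest to the right, and fatty acid synthesis and brown fat genes furthest to the left.

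Other named rises and falls share no list. Cyp2b10, a cytochrome P450 of drug metabolism, read 6.35 to 7.92 in WT-chow at 2 d and 10.98 to 11.57 in db/db-chow at 2 d and rose by 4.18 and 3.61 (SE 0.44 each). Cyp2e1, a P450 that oxidises ethanol and ketones, read 8.00 to 10.10 in WT-chow at 2 d and 4.26 to 5.25 in db/db-chow at 2 d and fell by 4.58 and 4.55 (SE 0.39 each). Prr32, on the X chromosome, rose by 4.56 and 4.85 (SE 0.29 each), Plekhg6, an activator of small GTPases, by 4.12 and 3.88 (SE 0.20 each), and the receptor Gprc5a by 4.37 and 3.90 (SE 0.26 each). Arhgef19, an exchange factor of small GTPases, fell by 3.33 and 3.29 (SE 0.14 each), and Aspg, an asparaginase, by 3.29 and 3.68 (SE 0.26 each). E2f6 fell by 3.45 and 3.36 (SE 0.12 each), although its brighter probe set was not called. Cpne9, a copine, rose by 3.95 and 4.45 (SE 0.39 each), and Apold1, an early response gene of endothelium, fell by 3.70 and 3.69 (SE 0.17 each).

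The muscle list had 0 of 14 genes called on both days, with medians of -0.37 and 2.03. Its genes were called at 5 d only, 8 of 14 higher against 22% of all genes at 5 d, and the members with the highest probe set levels, Tnnt3 and Tnnc2, subunits of troponin in fast muscle, went from 1.85 and 1.98 at 5 d to 0.12 and 0.10, no longer called, without WT-chow 5 d replicates 2 and 5.

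The test of a difference between the days themselves called 2 of 43681 probe sets (0.00458%), with 4490 at an unadjusted p under 0.05. Sybu, a linker of cargo to axonal motors, was lower in db/db-chow at 2 d by -0.95 (SE 0.14) and higher at 5 d by 0.46 (SE 0.14), a difference of 1.41 (adjusted p = 0.0167). On the deposited scale Sybu stood at -0.31 at 2 d and was not called. It read 5.59 to 5.84 in WT-chow at 2 d and 4.83 to 5.30 at 5 d, and 4.33 to 5.14 in db/db-chow at 2 d and 5.21 to 5.58 at 5 d, so both models moved. Inafm1 stood at -0.27 and 0.51 (SE 0.08 each), a difference of 0.79 (adjusted p = 0.0167), with another probe set at -0.66, and Inafm1 at 2 d turned to 0.16, not called, on the deposited scale. These calls rest on single arrays: the count was 0 without WT-chow 2 d replicate 3, WT-chow 5 d replicate 5 or db/db-chow 2 d replicate 5, 1 without db/db-chow 2 d replicate 3 or db/db-chow 5 d replicate 5, 4 without db/db-chow 2 d replicate 2, 6 without WT-chow 5 d replicate 1, and 0 without both muscle-poor arrays.

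The same comparison in white fat rested on 20 IWAT, 20 EWAT and 18 RPWAT arrays, each normalized within its depot. The db/db-chow minus WT-chow difference itself differed between BAT and IWAT for 19333 probe sets (44.3%) and between BAT and EWAT for 20602 (47.2%). Of 11419 probe sets changed on both days in BAT, 4030 were not called different from IWAT and 3670 not from EWAT. The labels do not tie depots to mice, and each depot entered the fit as a sample of its own. Of the 30 largest rises and falls, 25 differed between BAT and IWAT and 29 between BAT and EWAT. These were chosen by their difference in BAT, whose arrays also enter the contrast, so that a larger size in BAT is favoured by the choice, and the contrasts are given as a description.

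Elovl3 differed most from IWAT among the 30, at -5.17 (adjusted p = 7.39e-19), and H2-Q10 most from EWAT, at -7.67 (adjusted p = 3.28e-20). Gys2 differed by -3.49 and -4.29, Slc2a5 by -3.48 and -4.5, Aspg by -3.70 and -5.21 and Arhgef19 by -3.12 and -3.30 from IWAT and EWAT. On the side of the rises, Atp6v1c2 differed by 2.53 and 4.5, Mmp12 by 2.59 and 3.51 and Prr32 by 2.17 and 3.62. For Mcpt2 (-2.14 and -1.90) and H2-Ea (-0.91 and -0.74) the contrast went below 0, the difference being larger in each white depot.

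Some contrasts came from the white depots. Adrb3 stood at -4.90 in IWAT and -3.58 in EWAT, and its contrast with BAT was 3.72 and 2.40. The first Lepr probe set stood at -3.84 and -2.90 there, with a contrast of 3.21 and 2.27. Myc (contrasts 4.43 and 3.80), Phgdh (2.38 and 3.03) and Nsdhl (-2.84 and -2.59) had the opposite sign in IWAT and EWAT to that in BAT. Nnat gave contrasts of 3.06 and 3.28.

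**Figure D5:**
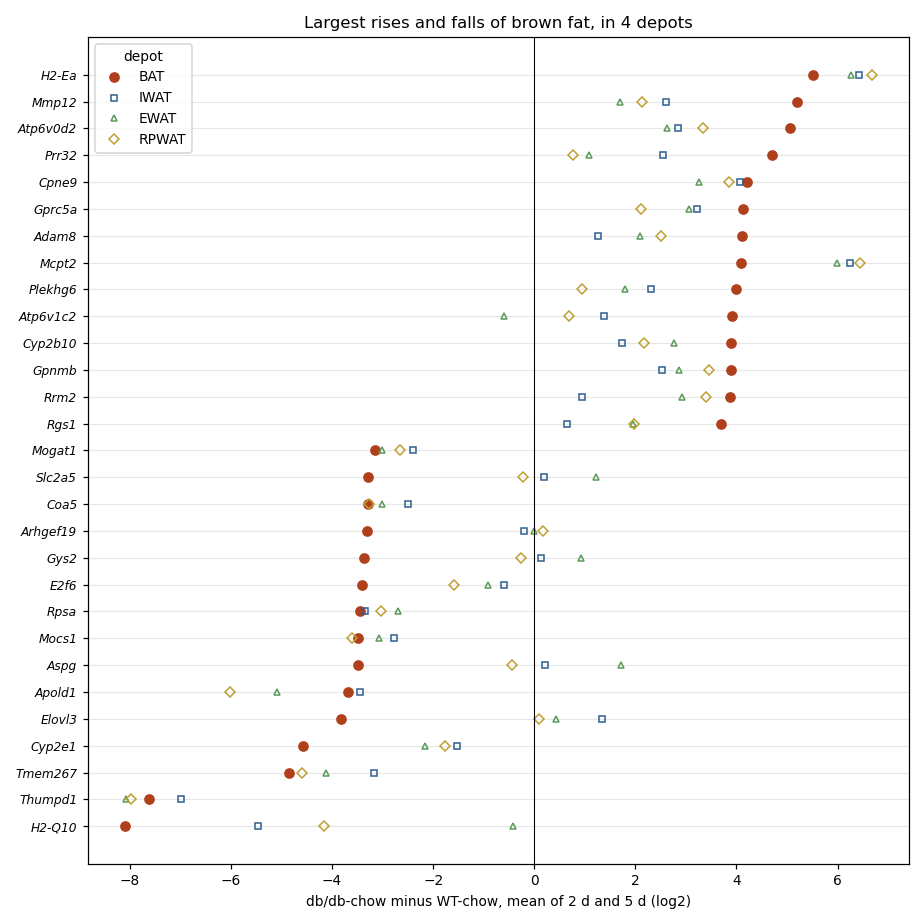
Mean log2 difference over 2 d and 5 d, db/db-chow minus WT-chow, of 29 of the 30 largest rises and falls of BAT, in BAT and in IWAT, EWAT and RPWAT, each point 1 depot. Thumpd1, Tmem267, Mocs1 and Coa5 lie far below 0 in all 4 depots, while Elovl3, Gys2, Slc2a5, Aspg and Arhgef19 lie far below 0 in BAT and near or above 0 in the others.

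WT-HFD mice were of the same strain as WT-chow and were fed a high fat diet. WT-HFD minus WT-chow in BAT shares the WT-chow arrays with the comparison above, so values are only set side by side. For it, the 10 WT-HFD arrays were quantile-normalized together with the 20 arrays. The db/db-chow values beside it come from the 20 arrays alone, so the scaling differs. For Elovl3 the HFD difference was -1.15 against -3.82 in db/db-chow (means of the days), for Acly -1.16 against -2.69, for Slc2a5 -1.42 against -3.28 and for Lep 0.80 against 2.95. It was 0.43 against 5.19 for Mmp12, 0.60 against 3.36 for Timp1, 0.25 against 2.69 for Myc and -0.21 against -3.36 for Gys2. It was 1.02 against 1.15 for Cpt1a and 1.86 against 1.65 for Ryr2.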

How the data were processed

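Vehicle arrays of BAT from 10 WT-chow and 10 db/db-chow mice were compared. The authors processed the scans of a custom Affymetrix mouse array with RMA in Rosetta Resolver (no version stated in the sources) and deposited 1 table of linear intensity values, in which each depot and model has its own scale. The present-call filter of the methods was not used, since no calls came with the values. Log2 of the deposited intensity was quantile-normalized over the 20 arrays and fitted with limma 3.58.1 in R 4.3.3, with 4 group means, a mean-variance trend and p-values adjusted by Benjamini-Hochberg over 43681 probe sets. For the depots, arrays were normalized within each depot and the contrast was between mean differences. Precision is limited by the 5 arrays in a group. RefSeq accessions named 15257 probe sets of the platform annotation and 640 outside it. The other names were platform symbols, current (11330), updated from a synonym (3702) or kept (53), and 12699 probe sets stayed unnamed.

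The genes named are each probe set of Lepr, the 15 largest rises and 15 largest falls (mean of both days, changed on both days, groups not overlapping, mean level above the median, 1 probe set a gene), up to 4 members of each list (called on both days with the largest mean difference, or, where fewer than 2 are called, the 2 with the highest mean level), and the probe sets with the smallest adjusted p between days. Some genes that this rule names are not reported here. Other members are named as counts, and defining markers by their list. A gene with several probe sets was read from that with the highest mean level. The comparison, the 36 lists and the tests were chosen with earlier results of these data known.

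Tested on simulated data, the fit of the 2 d comparison over 43681 probe sets recovered 21 of 67 changed by 0.5 on the log2 scale, 64 of 67 changed by 1 and 65 of 66 changed by 2, and made 3 false calls. For 5 d these were 22, 62 and 66, with 4 false calls. In the simulated arrays only the probe sets just counted were changed, noise was normal and independent, and the models had no gap in scale. The data hold far more changed probe sets and an uneven gap, so these rates may not carry over. Replicate numbers are shared by the groups, but the deviations of same-numbered arrays correlated at -0.2028 to 0.0521, and no array correlated best with its own number, so that the numbers were not taken as pairs. Alternatives were other scalings, the methods' ANOVA, other variance models, brighter probe sets only, the mean over the probe sets of a gene, a replicate block, fits by day or over all BAT arrays, and leaving out each array. Leaving out WT-chow 5 d replicates 2 and 5 together was chosen after seeing the data.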

Additional observations from a re-analysis of the deposited data

Results flagged for a closer look

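Of 640 groups of 5 arrays, 31 held an array far from the other 4 (30 are given here), where chance alone is set to give about 1 in 20. The count is thus near what chance gives, and the arrays below are listed as a description only. In WT-chow at 2 d the highest array stood apart for Lpin1 (10.5), Acot1 (6.7), Slc2a4 (9.68), Ryr2 (5.5), Gsta3 (8.26) and Emcn (10.02), and the lowest for Stat5a (10.53), Acly (10.56) and Pdhb (12.74). In WT-chow at 5 d the highest stood apart for Elovl3 (9.47), Hspa1b (10.16), Cd3e (6.82) and the mean of the lymphocyte genes (5.63), and the lowest for Apold1 (9.94) and S100b (9.85). In db/db-chow at 2 d the highest stood apart for Pde4d (7.01), Acss2 (9.97), Tnnc2 (13.32) and the means of the brown fat genes (9.38) and muscle genes (12.52), and the lowest for Lep (11.57) and the mean of white fat marked genes (6.65). In db/db-chow at 5 d the highest stood apart for Tmem267 (2.69), Lpin1 (10.17), Cox6c (7.91), Srebf1 (9.87) and Slc4a1 (5.83), and the lowest for Mccc1 (10.06), Bgn (10.53) and Mki67 (6.48). The same array, WT-chow 5 d replicate 1, was the high one for Hspa1b and the lymphocyte mean, and db/db-chow 2 d replicate 2 was low for Lep and high for muscle genes.

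The difference between models itself differed by test between BAT and white fat for most of the largest rises and falls, which were chosen by their difference in BAT. Values are given here as BAT minus IWAT and BAT minus EWAT on the log2 scale. Contrasts above 0 among the rises were Mmp12 2.59 and 3.51, Atp6v0d2 2.23 and 2.45, Prr32 2.17 and 3.62, Gprc5a 0.92 and 1.07, Adam8 2.85 and 2.00, Plekhg6 1.70 and 2.20, Atp6v1c2 2.53 and 4.5, Cyp2b10 2.15 and 1.12, Gpnmb 1.35 and 1.02, Rrm2 2.93 and 0.95, Rgs1 3.04 and 1.74. Those below 0 among the rises were H2-Ea -0.91 and -0.74, Mcpt2 -2.14 and -1.90. Among the falls they were H2-Q10 -2.62 and -7.67, Tmem267 -1.69 and -0.73, Cyp2e1 -3.03 and -2.41, Elovl3 -5.17 and -4.25, Aspg -3.70 and -5.21, Mocs1 -0.71 and -0.41, E2f6 -2.81 and -2.49, Gys2 -3.49 and -4.29, Arhgef19 -3.12 and -3.30, Coa5 -0.80 and -0.28, Slc2a5 -3.48 and -4.5. A contrast was called against EWAT alone for Cpne9 (0.95), Thumpd1 (0.44), Apold1 (1.40) and Rpsa (-0.75), and against IWAT alone for Mogat1 (-0.75). Of other genes, picked for this contrast after their values were seen, the contrasts were Lepr (probe set 1 of 3) 3.21 and 2.27, Nnat 3.06 and 3.28, Adrb3 3.72 and 2.40, Nsdhl -2.84 and -2.59, Phgdh 2.38 and 3.03, Myc 4.43 and 3.80.

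Between the days, the difference between models itself differed by test for Sybu (1.41) and Inafm1 (0.79).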

How the results depend on the processing

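Scaling moved the counts most. On the deposited scale 31115 probe sets were changed at 2 d, 29114 at 5 d and 25579 on both days, and with arrays centred on the median 22474, 24437 and 18006. Of 304 results of named genes, 259 kept direction and call on the deposited scale, 41 were no longer called and 2 became called, and with centring 290 kept both and 9 were no longer called. Signs turned on the deposited scale for Cd5 (0.196) and Inafm1 (0.158) at 2 d. With centring they turned for Ogdh (-0.384 and -0.389), S100b at 2 d (-0.149), Cd79a at 5 d (-0.129) and the second Lepr probe set at 5 d (-0.269). With the mean over a gene's probe sets they turned for that Lepr probe set (-0.362) and Inafm1 at 5 d (-0.074), and without the 2 muscle-poor WT-chow 5 d arrays Lepr stood at -0.059. The cause was not tested. Each of 2040 values of the 30 largest rises and falls over the alternatives run kept its direction and call. These 30 were chosen in the same arrays as the largest, called on both days and without overlap. The choice favoured this outcome, which says nothing of the other genes.

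Leaving out each array gave 14876 to 16336 at 2 d, 14870 to 16418 at 5 d, 10742 to 11197 on both days, 18346 to 22033 for BAT against IWAT, 19959 to 20441 for BAT against EWAT and 0 to 6 for the difference between days, which was 0 without the 2 muscle-poor arrays. The second Lepr probe set ran from -0.05 to 0.084 at 5 d. Of 6080 values of named genes, 6020 kept direction and call, 56 were no longer called, 1 became called and 3 reversed. Calls lost included those of Cd5, Fosb, Per1 and Slc4a1 at 2 d and Cd79a, Tnnc2 and Tnnt3 at 5 d.

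With the replicate number as a block 15436, 15381 and 10916 probe sets were changed, and 19712 and 21093 differed from IWAT and EWAT where it joined the depots. Of 304 results of named genes 303 kept their call, and Cd5 at 2 d lost it. The methods' ANOVA gave 17000, 17112 and 11790 at its unadjusted threshold and 13858, 14152 and 9421 after Benjamini-Hochberg. Restricted to brighter probe sets, so that fewer were tested, 11047, 11020 and 8462 were changed. How far signal over background limits the dim ones was not tested.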
